A study of Homo sapiens with 4 samples.

Results

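In human neural stem cells (hNSC), 593 of 5169 reproducible MEIS1/2 binding sites lay within 10 kb of another such site, a share of 11.5%, and these clustered sites formed 282 clusters. Clustered sites were chosen by measured values, namely the summit positions in the authors' list of reproducible peaks. A site was a member where its summit, the base with the highest signal, lay at most 10 kb from the summit of another site on the same chromosome, and members were chained into clusters. The other 4576 sites are called unclustered. Since summits chose the members, the size, span and spacing of the clusters are given as a description with no test. Strength, sequence, position relative to genes and nearby peaks outside the list were not used by this rule. They were compared between clustered and unclustered sites with Fisher's exact test (two-sided).

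Chromatin immunoprecipitation with sequencing (ChIP-seq) was done on untreated hNSC of one commercial line in serum-free medium, with 2 ChIP samples and 2 samples of Input, which is sheared chromatin without immunoprecipitation. An antibody against MEIS1 and MEIS2 was mixed with one against MEIS1, so the bound protein at a given site is unknown. Both replicates come from the same line, and the Inputs were used only in the authors' peak calling. The peak lists hold no reads and no expression values, so the depth of the libraries is unknown and the cell type could not be checked against marker genes.

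MEIS proteins belong to the TALE class of homeodomain transcription factors, which recognise the core TGACAG and often bind beside a PBX partner. MEIS1 and MEIS2 are expressed in neural progenitors and take part in the development of the nervous system. Genes that control development are often surrounded by several regulatory elements, and neighbouring binding sites of one factor can belong to 1 element or to separate ones, which a peak list cannot tell apart.

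The sequences below show the TGACAG nearest to the summit in sites of the first 4 clusters by number of sites (ties by summed −log10 p) and of a strong pair in SEMA5A, because neighbouring sites could be copies of one sequence or carry separate MEIS cores. Sequences are from GRCh37, 5′ to 3′ on the strand stated, and capitals mark TGACAG or, where it is present, the PBX-MEIS composite (TGA, then T or G, then TGACAG). The EFNA5 sites were added after their values were seen, since both hold the composite.
SPSB4 intron, first site (chr3:140792896-140792925, plus strand): ttgaaatgcaggTGACAGcatttgaaatca
SPSB4 intron, second site (chr3:140800414-140800443, plus strand): gggggtagccacTGACAGgaggtatgccag
SPSB4 intron, the third site (chr3:140803359-140803388, minus strand): agtgtttgTGATTGACAGggcagctgccta
SPSB4 intron, the fourth site (chr3:140810458-140810487, minus strand): ctggggtttccaTGACAGccctggctctgt
FAM172A intron, first site (chr5:93219546-93219575, minus strand): aaggaagaaacaTGACAGgagaccacttac
FAM172A intron, second site (chr5:93222797-93222826, minus strand): tgaccttctcttTGACAGcttgattaatta
FAM172A intron, the third site (chr5:93229141-93229170, plus strand): caaacagtctttTGACAGaaaatacgacta
FAM172A intron, the fourth site (chr5:93230544-93230573, plus strand): caaataataaagTGACAGgttaatttacag
EPHA7 upstream, middle site (chr6:94755534-94755563, plus strand): gtctgcgtacaaTGACAGtgctcaggcatg
MCTP1 intron, first site (chr5:94220411-94220440, minus strand): ttaagccccattTGACAGgctgcctagaaa
MCTP1 intron, second site (chr5:94227833-94227862, plus strand): gccagagcTGATTGACAGcttgtcaccgtg
SEMA5A intron, first site (chr5:9443235-9443264, minus strand): ctgtggaacaagTGACAGaggctgtcagaa
SEMA5A intron, second site (chr5:9452325-9452354, minus strand): tcttttgagcagTGACAGcttccagagtga
EFNA5 intron, first site (chr5:106847927-106847956, minus strand): gccaggatTGATTGACAGccactgtcttca
EFNA5 intron, second site (chr5:106854052-106854081, plus strand): ggtcactgTGATTGACAGgattttggtgtt

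Beyond the core, these flanks differed from site to site within a cluster. Among the 311 pairs of neighbouring sites in the clusters, 1 pair shared a word of 20 bases between its windows of 500 bp (0.322%). Of 4835 neighbours that lay further apart on a chromosome, 8 did (0.165%). Near-identical copies could be missed, since the authors kept only reads with a mapping quality of at least 30. Diverged copies need not share 20 bases, so these counts cannot tell whether neighbours are copies. Where both neighbours held TGACAG, the copies nearest to the summits were on the same strand in 56 of 102 pairs.

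At genes known as targets of the TEAD factors and their partner YAP, the consensus of TEAD itself was looked at. All 8 clustered sites nearest to CCN1, CCN2 and ANKRD1 held this consensus, CATTCC, in their windows of 500 bp, beside 38.4% of all clustered and 38.1% of unclustered sites, and 1 of the 8 held TGACAG. The nearest CATTCC lay 1 and 16 bp from the summit in the CCN2 sites and 75 to 243 bp from it in the other 6. The CATTCC nearest to each summit is printed for that reason, with the consensus in capitals.
CCN1, first site (chr1:86044084-86044113, minus strand): tcaaacacacgcCATTCCagagattccttt
CCN1, second site (chr1:86050191-86050220, plus strand): aaaggtccagagCATTCCtaaaagaaaggg
CCN2, first site (chr6:132272664-132272693, plus strand): cttgacactcagCATTCCtccgtctgaaaa
CCN2, second site (chr6:132275770-132275799, plus strand): gtggatgtattaCATTCCttcccttaagtt
ANKRD1, first site (chr10:92681047-92681076, plus strand): atgtgagagggcCATTCCtttggtggtgat
ANKRD1, second site (chr10:92690888-92690917, plus strand): ctctggaagccaCATTCCctcctcatccgc
ANKRD1, the third site (chr10:92810036-92810065, plus strand): tctggtgaaaaaCATTCCgagggtcattta
ANKRD1, the fourth site (chr10:92814048-92814077, plus strand): ttctgctctttaCATTCCttaagaagaacc

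The clusters were small. Of the 282 clusters, 256 were pairs, 24 held 3 sites, 1 held 4 and 1 held 5 sites. The 311 distances between neighbouring summits ran from 1250 bp to 9943 bp with a median of 5026 bp, and the span from first to last summit had a median of 5544.5 bp and reached 21172 bp. Unclustered sites had their nearest other site at a median of 122981 bp. A clustered site was typically 1173 bp wide, so summits closer together than about a peak's width would stand as 1 entry in the list and cannot be told apart from single sites. At the limit of the rule, the last pairs inside lay 9882 bp (nearest gene GALNT4), 9936 bp (TLE3) and 9943 bp (ANKRD1) apart. The first pairs outside lay 10005 bp (MBL2), 10038 bp (ZNF608) and 10064 bp (SFRP1) apart.

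**Figure D1:**
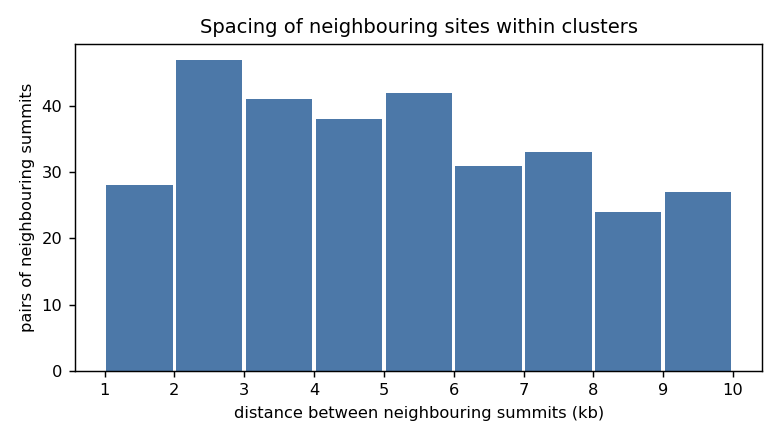
Number of pairs of neighbouring summits within clusters (vertical axis) in bins of distance in kb (horizontal axis), over 311 pairs. The fullest bin was 2 to 3 kb with 47 pairs, and the bins from 8 to 10 kb held 24 and 27 pairs.

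The cluster with the most sites lay in SPSB4 (ENSG00000175093), which encodes a SOCS-box adaptor of a ubiquitin ligase. Its 5 sites spanned 21.2 kb of intron 2, from 22.9 kb to 44.1 kb downstream of the canonical TSS (transcription start site). The first site (chr3:140791982-140793910) reached a −log10 p of 87.0 and 187 in replicates 1 and 2, in this order here and below. The second site (chr3:140799890-140801322) had 195 and 208, and a fold enrichment over Input of 22.0 and 38.8. The third site had a −log10 p of 114 and 58.5. The second site was thus the strongest in both replicates, while the order of the others differed. The fourth site had a −log10 p of 107 and 104, and the last site, the weakest of the 5 in both replicates, had 15.8 and 16.8. TGACAG was present in the 4 stronger sites, with 3 copies in the fourth, and was absent from the weakest.

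The cluster of 4 sites lay in intron 6 of FAM172A, and its nearest TSS was that of POU5F2 (ENSG00000248483), a POU-domain gene, at 142 to 153 kb. Its second site (chr5:93221718-93223944) was the strongest in both replicates, with a −log10 p of 78.2 and 123. The first site reached 21.8 and 65.6, the third 35.5 and 33.8, and the fourth 25.5 and 40.7. Each of the 4 sites held TGACAG, and in 3 of them its centre lay at most 20 bp from the summit. A separate pair of sites lay in intron 8 of the same gene. The stronger site of that pair (chr5:93156657-93159048) reached a −log10 p of 952 and 1232 and held TGACAG 1 bp from its summit. Its neighbour, 2074 bp away, had 259 and 363 and held none.

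The strongest clustered site belonged to a cluster of 3 sites upstream of EPHA7 (ENSG00000135333), a receptor for ephrin ligands in axon guidance. This middle site (chr6:94754146-94755995) lay 626 kb upstream of the TSS, outside protein-coding genes, and ranked 2 of all 5169 sites. It had a −log10 p of 2882 and 2930 and a fold enrichment of 141 and 298 in replicates 1 and 2. Its neighbours were far weaker, with a −log10 p of 41.6 and 147 on one side and of 51.5 and 77.2 on the other. The middle site was the only one of the 3 with TGACAG, and this copy lay 236 bp from the summit.

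Among the other clusters of 3 sites, those in MCTP1 and FAT3 were each led by a strong site. In MCTP1, a transmembrane C2-domain gene, the site in intron 12 (chr5:94219336-94221134) had a −log10 p of 1063 and 1012. The site 7467 bp on, in intron 11, held the composite 1 bp from its summit and had 161 and 195. The last site of that cluster had 40.9 and 60.1 and no TGACAG. In FAT3, which encodes an atypical cadherin, the 3 sites of intron 3 had a −log10 p of 31.9 and 63.2, of 116 and 69.8, and of 1026 and 836. All 3 FAT3 sites held TGACAG, and the strongest (chr11:92369410-92370814) held 3 copies.

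Several of these clusters lay in or near genes of receptors and corepressors. NTRK2 encodes the receptor TrkB for brain-derived neurotrophic factor. Its 3 sites in intron 12 had a −log10 p of 125 and 255, of 15.5 and 21.1, and of 119.6 and 156, so the outer sites were strong and the middle one weak in both replicates. EPHA4, another ephrin receptor, held 3 sites in intron 3 with a −log10 p of 74.6 and 310.0, of 27.4 and 27.7, and of 121 and 163. Here the strongest site differed between replicates. TLE3, a Groucho-type corepressor, had 3 sites upstream of its TSS, the nearest at 1.86 kb with a −log10 p of 326 and 284. Its other sites had 13.8 and 28.2, and 66.9 and 92.3. In RERE, an atrophin-family corepressor, the middle site of 3 in intron 1 had 241 and 219, against 20.2 to 26.2 at its neighbours.

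The 12 clusters with the most sites include 10 of the 24 clusters of 3 sites, taken by the highest summed −log10 p, and those not yet given were at CDK14, CDC5L and ME3. The 3 sites in intron 14 of CDK14, whose nearest TSS was that of the Wnt receptor FZD1, held no TGACAG, although the last one had a −log10 p of 224 and 233. Near the splicing-factor gene CDC5L, 1 of 3 sites held TGACAG, and this was the weakest, with 54.5 and 46.0. In ME3, a mitochondrial malic enzyme gene, the strongest site of intron 2 had 164 and 185 and held no TGACAG, whereas its weakest site (22.0 and 23.9) held 1 copy. Over these 12 clusters, 23 of 39 sites held TGACAG and 2 held the composite. The strongest site was the same in both replicates in 11 of the 12, and 9 of the 12 lay wholly within a protein-coding gene.

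**Figure D2:**
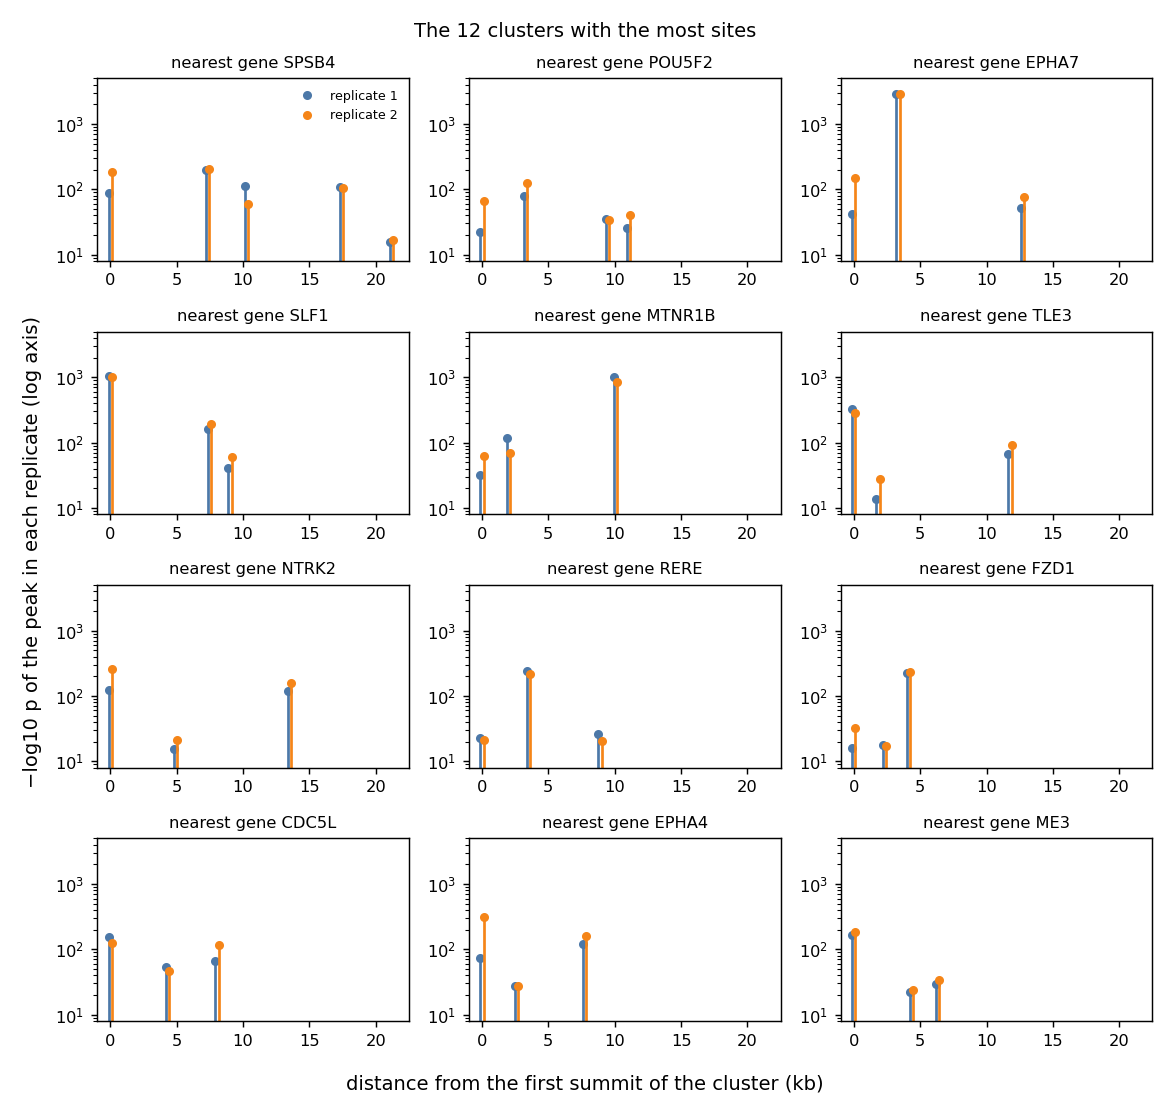
Each panel shows 1 of the 12 clusters with the most sites (ties by the highest summed −log10 p), titled by the gene with the nearest canonical TSS. The horizontal axis is the distance in kb from the first summit of the cluster and the vertical axis is the −log10 p of the peak in each replicate on a log axis, with replicate 1 in blue and replicate 2 in orange, drawn slightly apart. In the EPHA7 panel, the middle site reached 2882 and 2930 between neighbours of 41.6 to 147.

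Outside these 12, the clusters with the highest summed strength were the FAM172A pair above and pairs in DENND1A, SEMA5A and ITPK1 and near FGFR3. In SEMA5A, a semaphorin gene, the second site of intron 1 (chr5:9451785-9453080) had a −log10 p of 984 and 1012 and held TGACAG 4 times. The first SEMA5A site, 9084 bp away, had 44.2 and 47.1 and held 5 copies, 1 of them in the composite. In DENND1A, whose nearest TSS was that of the polarity gene CRB2, the site in intron 19 had 1049.7 and 903 and the site in intron 18 had 135 and 178. In ITPK1, an inositol phosphate kinase gene, the strong site had 1354 and 962 and its neighbour, 2548 bp away, had 31.2 and 19.6. FGFR3, which encodes a receptor for fibroblast growth factors, had a pair upstream of its TSS. Its site at 14.9 kb had 1085 and 569.6 and no TGACAG, and its site at 7.33 kb had 196 and 185 and 1 copy. In each of these 5 pairs, the same site was the stronger in both replicates.

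Clustered sites were stronger than unclustered ones. The −log10 p of a site in the reproducible list had a median of 35.1 for clustered and 28.5 for unclustered sites. At most named sites this value equalled the lower of the 2 replicate values, as at the third SPSB4 site (58.5, with 114 and 58.5 in the replicates). Of the clustered sites, 346 of 593 lay above 29.3, the median of all sites (58.3%, 95% Wilson interval 54.3 to 62.2). Of the unclustered sites, 2236 of 4576 did (48.9%, 47.4 to 50.3). The odds ratio was 1.47 (95% confidence interval 1.23 to 1.75), with a Benjamini-Hochberg adjusted p of 0.000135 over the 9 site features tested by Fisher's exact test. Both replicates showed this order, with a median fold enrichment of 6.76 against 6.35 in replicate 1 and of 13.0 against 11.3 in replicate 2. The share of clustered sites was 9.19% and 8.99% in the 2 weakest of 5 strength classes, 11.0% in the middle class, and 13.2% and 15.0% in the 2 strongest. Of the strongest 100 sites 15 were clustered, and of the strongest 10 it was 1, the EPHA7 site. The call was lost against unclustered sites that themselves had another site at 10 to 50 kb, with an odds ratio of 1.28 and an adjusted p of 0.138. It was also lost for sites with an irreproducible discovery rate (IDR) of at most 0.001, and for sites over 5 kb from a TSS, each with an odds ratio of 1.27.

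**Figure D3:**
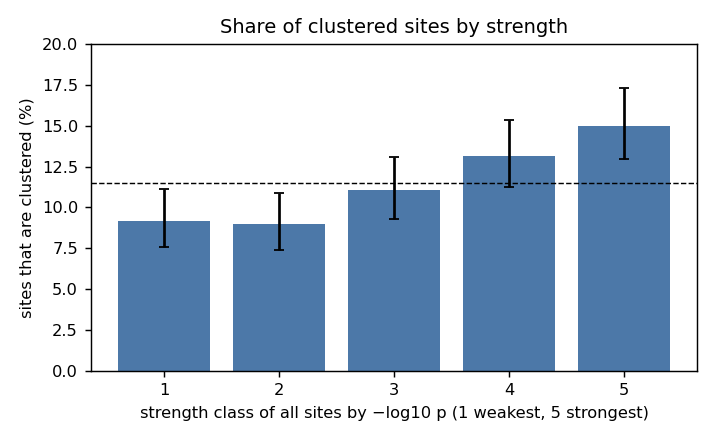
Percentage of sites that are clustered (vertical axis) in 5 classes of about equal size of all 5169 sites ordered by −log10 p (horizontal axis, weakest first), with 95% Wilson intervals as bars and the share over all sites, 11.5%, as a dashed line. The share was 9.19% in the weakest class and 15.0% in the strongest.

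Sites of one cluster often differed in strength, and their order mostly held in both replicates. Over the 256 pairs, the higher −log10 p was a median of 2.17 times the lower and up to 49.0 times. It was over 2 times the lower in 137 pairs, over 5 times in 46 and over 10 times in 14. The same site was the stronger one in both replicates in 215 of 256 pairs by −log10 p (84.0%) and in 208 by fold enrichment (81.3%). The −log10 p of the left and the right site had a Spearman correlation of 0.10 over 256 pairs, whose sites share libraries. Both sites lay above the median of all sites in 88 pairs, 1 site in 118 and neither in 50. In the 26 clusters of 3 or more sites, the strongest site was over 2 times the next in 12 and was the same in both replicates in 21. IDR kept peaks that were reproducible between replicates. Part of the agreement between replicates, here and in the clusters above, was therefore set by the choice of sites.

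A difference in the share of sites with TGACAG did not pass the test. The core occurred within 500 bp windows on the summits in 335 of 593 clustered sites (56.5%) and in 58.5% of unclustered sites, with an odds ratio of 0.921 (95% confidence interval 0.772 to 1.10) and an adjusted p of 0.686 by Fisher's exact test. Where it occurred, it lay within 50 bp of the summit in 224 of 335 clustered sites (66.9%) and in 68.0% of unclustered ones. Its median distance from the summit was 14 bp in clustered and 16 bp in unclustered sites. Every site held TGACAG in 87 of 282 clusters and no site did in 51. In pairs, an association between TGACAG in the left and in the right site did not pass the test. Both sites held it in 81 pairs, the left alone in 68, the right alone in 58 and neither in 49, which gave an odds ratio of 1.01 (0.593 to 1.71, p = 1 by Fisher's exact test).

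Repeated TGACAG was less frequent in clustered sites. At least 2 copies were found in 88 of 593 clustered sites (14.8%) against 878 of 4576 unclustered sites (19.2%), with an odds ratio of 0.734 (0.572 to 0.934) and an adjusted p of 0.0300 by Fisher's exact test. The difference was in sites with exactly 2 copies, at 10.6% against 15.1%, while 3 or more copies were found in 4.22% and 4.13%. This call was lost under 10 of 13 alternatives, with odds ratios of 0.696 to 0.907 over all 13. It was lost with the peaks of replicate 2 alone (0.785, adjusted p = 0.132 by Fisher's exact test) and held with those of replicate 1 alone (0.724, adjusted p = 0.0238 by Fisher's exact test).

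None of the 8 consensuses differed between clustered and unclustered sites after adjustment by Fisher's exact test, and 2 had an unadjusted p below 0.05. The PBX-MEIS composite was found in 17 clustered sites (2.87%) and in 5.20% of unclustered sites, with an odds ratio of 0.538 (0.306 to 0.888) and an adjusted p of 0.0921. Its lower share passed the threshold in 1 of 11 alternatives (adjusted p = 0.0485 by Fisher's exact test) and not in the other 10. That alternative took only clustered sites at 2 to 10 kb from the nearest. Odds ratios over all 11 ran from 0.464 to 0.694. A pair of sites with the composite stood in 1 cluster at EFNA5, as printed above. The GC box GGGCGG was found in 7.25% against 10.1% (odds ratio 0.698, adjusted p = 0.110 by Fisher's exact test). TEAD CATTCC was found in 38.4% against 38.1%, with a difference of 0.337 percentage points (95% confidence interval -3.75 to 4.55). SOX CATTGT was found in 40.8% against 39.8%, AP-1 TGANTCA in 17.4% against 19.4%, homeodomain TAATT in 70.3% against 70.2% and LHX TAATTA in 19.4% against 18.1%.

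**Figure D4:**
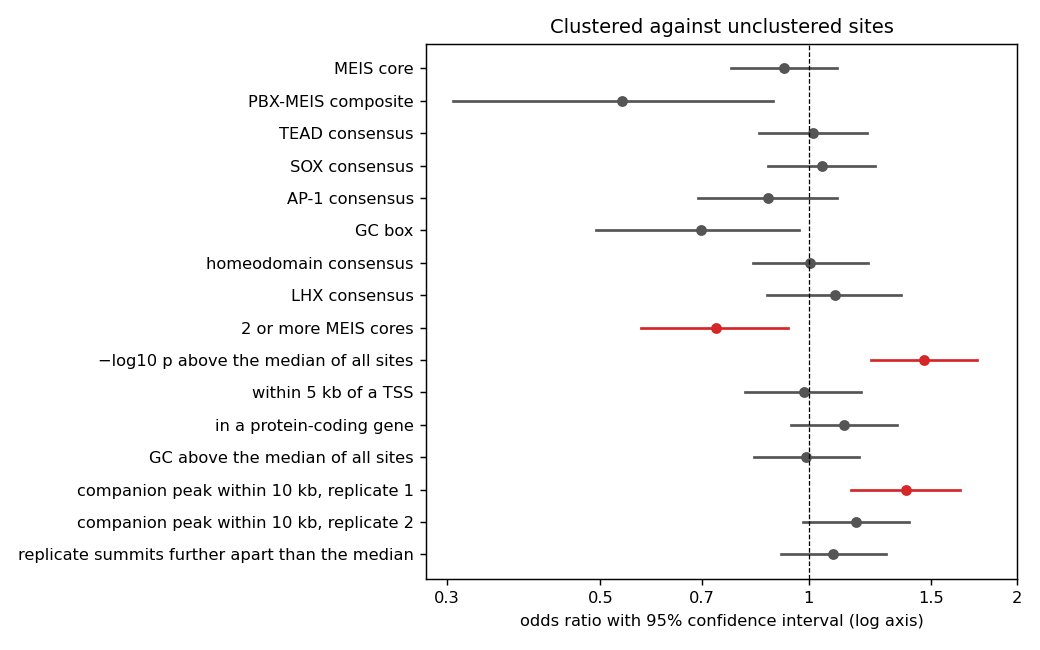
Odds ratio of each feature in clustered against unclustered sites, with 95% confidence intervals, on a log axis; the dashed line marks an odds ratio of 1. Red marks the 3 features with a Benjamini-Hochberg adjusted p of at most 0.05 by Fisher's exact test within their family, which were strength (1.47), a companion peak in replicate 1 (1.38) and 2 or more MEIS cores (0.734).

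Position relative to genes gave no call between clustered and unclustered sites with the annotation used throughout, but the answer depended on which starts and genes were counted. Of the clustered sites, 170 (28.7%) lay within 5 kb of the TSS of any annotated transcript, against 29.0% of unclustered sites (odds ratio 0.983, 0.809 to 1.19, adjusted p = 1 by Fisher's exact test). With only the canonical TSS of protein-coding genes, clustered sites were less often within 5 kb, with an odds ratio of 0.589 and an adjusted p of 0.0108. Of the clustered sites, 317 (53.5%) lay in the body of a protein-coding gene, against 50.5% (odds ratio 1.12, 0.943 to 1.34, adjusted p = 0.343 by Fisher's exact test). With genes of every annotated type this became 1.47 with an adjusted p of 0.000373. A GC content above the median of 42% was found in 49.4% against 49.6%. In 145 of 282 clusters all sites lay within protein-coding genes and in 132 none did, and 113 clusters had a site within 5 kb of a TSS.

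Peaks outside the reproducible list, of any strength, were also more frequent near clustered sites in replicate 1. At least 1 such peak had its summit within 10 kb of 235 of 593 clustered sites (39.6%) and of 32.2% of unclustered sites, with an odds ratio of 1.38 (1.15 to 1.65) and an adjusted p of 0.00187 by Fisher's exact test. In replicate 2 the shares were 45.5% and 41.7%, with an odds ratio of 1.17 (0.982 to 1.40) and an adjusted p of 0.173. Replicate 2 passed the test when sites were joined within 20 kb (odds ratio 1.37), when peaks were counted within 50 kb (2.22) and when peaks under a −log10 p of 5 were left out (1.34). Sites of one cluster lie within 10 kb of a neighbour, so 1 such peak can count for several clustered sites. The replicate 1 call was lost under 4 of 11 alternatives. With the leftmost site of each cluster alone, the odds ratio was 1.36 with an adjusted p of 0.0692 by Fisher's exact test. Against unclustered sites with another site at 10 to 50 kb, the odds ratio was 1.16 in replicate 1 and 0.865 in replicate 2. The distance between the summits of both replicates exceeded the median of 11 bp in 50.8% of clustered and 48.7% of unclustered sites (adjusted p = 0.539 by Fisher's exact test).

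Of 2810 protein-coding genes with the nearest canonical TSS to at least 1 site, 251 were nearest to a clustered site, a share of 8.93%. Among the 1032 genes nearest to 2 or more sites, the share was 24.0% (248 genes). Both sites of a pair had the same nearest gene in 253 of 256 pairs. For 27 genes, 2 or more clusters shared the nearest TSS. EFNA5, an ephrin ligand, and ZNF608, a zinc-finger gene, had 4 clusters each, with 10 of 20 and 9 of 30 sites clustered. TCF7L2 and SPRY1 had 3 clusters each, with 6 of 10 and 6 of 17 sites clustered. NR2F2, an orphan nuclear receptor, also had 3, with 5 of 26 sites. A gene with more sites has more chances of a cluster, and gene territories differ in size, so these counts are set beside the shares over all genes and sites and were not tested.

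Axon guidance genes held the most clustered sites of the lists examined. Of 118 sites nearest to genes of this list, 33 were clustered (28.0%), beside 11.5% of all sites. They lay at 8 of 20 genes of the list that had a site, beside 8.93% of all genes with a site. Of its 17 genes with 2 or more sites, 8 had a clustered one, beside 24.0% of all such genes. These were the ligands SLIT2, EFNA5 and EFNB2 and the receptors ROBO2, NRP2, EPHA3, EPHA4 and EPHA7. SEMA5A was not in the list. At EFNA5, the 10 sites of the 4 clusters lay 98.9 to 216 kb downstream of the TSS. The strongest of them (chr5:106847424-106849047) had a −log10 p of 134 and 108 in replicates 1 and 2. It and its neighbour at 6114 bp, with 29.3 and 31.9, both held the composite, in opposite orientation on the chromosome. At EPHA3, the cluster of 3 sites in intron 2 had a −log10 p of 61.1 and 82.0, of 101 and 212, and of 26.7 and 32.3. Sites of the list's other genes were not clustered, among them 5 sites at SEMA3C, 5 at NRP1 and 4 at DCC.

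The 3 lists of growth factor pathways had shares of 28.0% to 33.3%. For FGF and EGF signalling, 14 of 50 sites were clustered (28.0%). They lay at the receptor FGFR3 and at 4 inhibitors of the pathway, SPRY1, SPRY2, SPRED1 and DUSP6. The SPRY2 pair lay 18.8 and 21.0 kb upstream of its TSS, with a −log10 p of 344 and 295 at the nearer and of 120.0 and 133 at the further site, and both held TGACAG. At SPRED1, the site 1.61 kb upstream of the TSS had 406 and 337 and the site in intron 1 had 38.4 and 37.1. For TGF-beta, BMP and RGM genes, 10 of 30 sites were clustered (33.3%), at the ligand BMP7, the receptor BMPR1B, the co-receptor RGMB and the signal transducer SMAD3. The stronger SMAD3 site had 139 and 223, and the stronger BMP7 site, in intron 1, had 118 and 121. For the Wnt pathway, 11 of 37 sites were clustered (29.7%), at the receptor FZD1 and the transcription factors TCF7L2 and LEF1.

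The TEAD and YAP list had the highest share, 8 of 17 sites (47.1%), at 3 of its 6 genes with a site. Over all genes with a site the share was 8.93%, and over those with 2 or more sites it was 24.0%. CCN1 and CCN2 encode matricellular proteins and ANKRD1 an ankyrin-repeat protein. The CCN2 pair lay 0.151 and 3.27 kb upstream of the TSS, with a −log10 p of 65.3 and 48.6 and of 36.7 and 40.6 in replicates 1 and 2. The CCN1 pair lay on both sides of its TSS, at 2.15 kb upstream and 3.84 kb downstream, with 57.4 and 55.4 and with 48.8 and 41.1. ANKRD1 had a pair at 0.294 and 10.2 kb upstream and another at 129 and 133 kb, of which the strongest site had 319.5 and 348. CATTCC, printed above for these sites, was present in all 8 and in 14 of all 17 sites of the list, beside 38.1% of unclustered sites. The list is small, and the consensus was looked at in it after the sites were known.

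The lists of transcription factor genes had shares of 4.08% to 25.6%. Of the list of other neural homeobox genes, 10 of 39 sites were clustered (25.6%), at POU3F2, POU3F3 and ZEB2. The POU3F2 pair with the highest values, 183 and 192 kb upstream of the TSS, had a −log10 p of 74.7 and 101 and of 66.1 and 102, and both sites held 2 copies of TGACAG. At TALE homeobox genes 2 of 28 sites were clustered (7.14%), beside 11.5% of all sites. MEIS1 and MEIS2 had 3 and 2 sites as the nearest gene, none of them clustered. For SOX genes 2 of 49 sites were clustered (4.08%), both at SOX5, and SOX2 had 8 sites of which the closest 2 lay 10296 bp apart. For proneural and Notch genes it was 2 of 28, both at NEUROD1.

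Adhesion genes were nearer to the share of all sites. Of cadherin and protocadherin sites, 14 of 83 were clustered (16.9%), at CDH2, CDH4, CDH7, CDH8 and PCDH18. Of synaptic adhesion sites, 15 of 126 were clustered (11.9%). These included a pair in intron 1 of the latrophilin gene ADGRL2, whose stronger site (chr1:82273905-82275933) had a −log10 p of 739 and 715 without TGACAG, and a pair in ADGRL3, whose stronger site had 583 and 745, also without it. Among the remaining lists were NFI and orphan receptors (5 of 43 sites, all at NR2F2), hedgehog and ZIC (2 of 23, at ZIC1) and cell cycle (2 of 14, at MYCN). Of candidate genes for restless legs syndrome, 4 were examined, MEIS1 among them. None of the 12 sites nearest to these was clustered, beside 11.5% of all sites, and 12 sites are too few to tell these shares apart. Of the 12 sites, 8 were nearest to DACH1, 3 to MEIS1 and 1 to NTNG1. MDGA1 was nearest to no site, although the study reported a site upstream of it. The study also reported a site far upstream of NTNG1 that was among its strongest. The site counted for NTNG1 here had a −log10 p of 17.25. Sites were counted by the nearest canonical TSS alone.

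**Figure D5:**
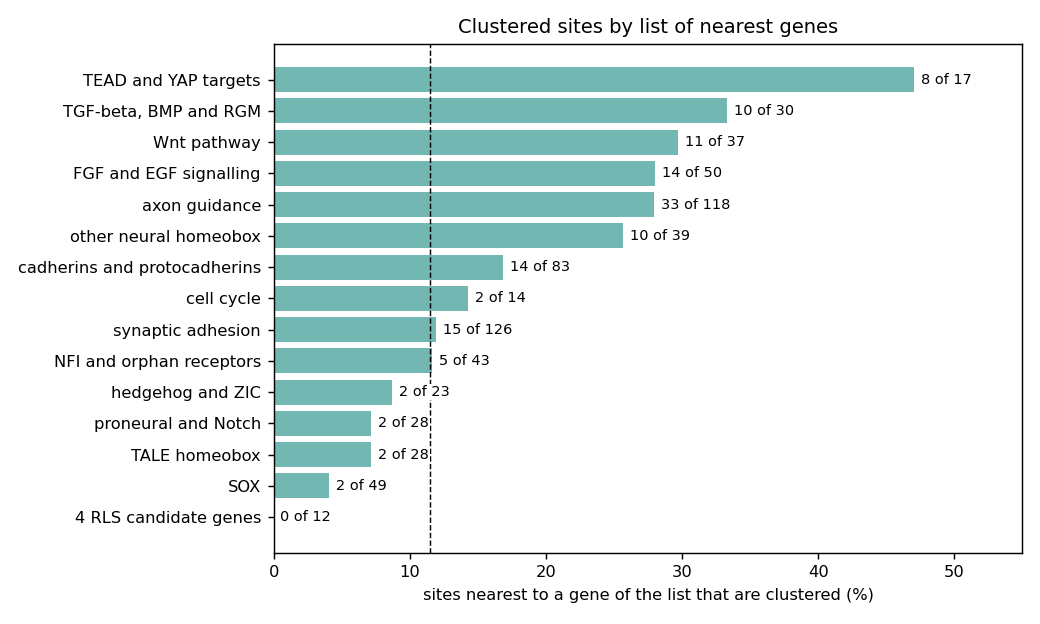
Percentage of the sites nearest to genes of each list that are clustered, with the number clustered of all sites of the list beside each bar; the dashed line marks the share over all sites, 11.5%. The TEAD and YAP list had 47.1% and the list of SOX genes 4.08%; lists rest on 12 to 126 sites and were not tested.

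The share of clustered sites also differed between chromosomes. It was 18.2% on chromosome 5 (77 of 423 sites), where the clusters at FAM172A, MCTP1, SEMA5A, EFNA5 and ZNF608 lie. The lowest shares were 2.99% on chromosome 19 (2 of 67) and 2.13% on chromosome X (2 of 94). The study describes its line as euploid. Whether copy number, read depth or the density of sites along a chromosome moved with these shares was not tested.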

How the data were processed

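Per the labels, libraries of 2 MEIS ChIP and 2 Input samples were read from both ends over 36 bp. Adapters were trimmed by the authors (cutadapt 1.16), who mapped reads to GRCh37 with Bowtie2 2.3.0, kept mapping qualities of at least 30 (SAMtools 1.2), removed duplicates (Picard 2.15.0) and called peaks in each replicate against Input with MACS2 (version not stated) at a p-value of 0.01. Mapping quality filters remove reads from repeats, so clusters within them can be missed. IDR then kept peaks reproducible between replicates. The deposited lists give, per the file headers or their format, the −log10 p and q, the fold enrichment over Input (a linear ratio) and, for reproducible sites, a scaled score. Replicate lists held 36796 and 47449 peaks. The −log10 p of a site is that of the reproducible list, which at most named sites equals the lower of the 2 replicate values. Values per replicate are those of the strongest overlapping peak. The list's 8 unnamed columns of per-replicate values were not used here.

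Windows of 500 bp on summits were searched on both strands for the 8 consensuses (pysam 0.24.0), where TAATTA contains TAATT and the composite contains TGACAG. Genes and TSS were from GENCODE 44 mapped to GRCh37. The position of one strong site and the values of one listed pair are not reported here. Shares were compared by Fisher's exact test (scipy 1.17.1) with Benjamini-Hochberg adjustment over 8 consensuses and over 9 other features at 0.05, and chaining, search and test were tested on simulated data. Sites are not replicates, and neighbours in a cluster are not independent. All intervals cover the number of sites alone. The wash protocol of each replicate is unknown. Named are the 12 clusters with the most sites (ties by summed −log10 p), the next 5 by summed −log10 p, and up to 4 clusters for each gene list. Other genes of the lists stand as counts. The pairs at ZNF608 and DUSP6, the second NTRK2 pair, and GALNT4, MBL2 and SFRP1 at the limit of the rule were named after their values were seen. The members, lists and rules were chosen with earlier results of these data known.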

Additional observations from a re-analysis of the deposited data

How the results depend on the processing

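Of 200 recomputed values, 133 kept the main result. For odds ratios this meant the same direction and side of the threshold, and for counts a value near the main count. Values below are odds ratios unless counts are named, and causes were not tested. Joined within 5 kb, 301 sites near 137 genes were clustered and the calls of repeated TGACAG (0.753) and of replicate 1 companions (1.31) were lost. Within 20 kb, 981 sites near 398 genes were clustered, repeated TGACAG was lost (0.833), replicate 2 companions passed (1.37), and SOX (0.946), homeodomain (0.947), GC content (1.05), summit offset (0.993) and the pair test (0.963) changed side of 1. At an IDR of at most 0.001, 287 sites near 130 genes remained, strength (1.27) and repeated TGACAG (0.907) were lost, and homeodomain (0.886), LHX (0.946), TSS (1.08), gene body (0.818) and GC (1.06) changed side. With the leftmost site of each cluster alone, repeated TGACAG (0.696) and replicate 1 companions (1.36) were lost, and TEAD (0.978), SOX (0.884), AP-1 (1.12), homeodomain (0.848) and LHX (0.884) changed side. For clustered sites at 2 to 10 kb, 1 consensus passed in place of 0, and homeodomain (0.981), gene body (0.997), GC (1.05) and the pair test (0.872) changed side. Against unclustered sites with a neighbour at 10 to 50 kb, repeated TGACAG (0.751), strength (1.28) and replicate 1 companions (1.16) were lost, and TEAD (0.926), homeodomain (0.998), TSS (1.08) and replicate 2 companions (0.865) changed side. Over 5 kb from a TSS, repeated TGACAG (0.705), strength (1.27) and replicate 1 companions (1.33) were lost, and TEAD (0.989), SOX (0.975), GC box (1.21), homeodomain (0.932) and GC (1.18) changed side. Windows of 200 bp lost repeated TGACAG (0.753), and SOX (0.985), homeodomain (0.946) and GC (1.04) changed side; windows of 1000 bp lost it too (0.851). Canonical TSS (0.589) and all annotated genes (1.47) passed, as did replicate 2 companions within 50 kb (2.22) or with a −log10 p of at least 5 (1.34). Using the strongest peaks of 1 replicate alone gave 598 clustered sites either way, repeated TGACAG at 0.724 to 0.785 (lost without replicate 1, held without replicate 2), TSS at 0.914 to 1.14, gene body at 0.953 to 1.15, GC at 0.975 to 1.08, SOX at 0.912 to 0.957 and homeodomain at 0.996 to 1.03. Chosen after seeing the data were the sites above the median −log10 p alone, where repeated TGACAG was lost (0.855), and leaving out clusters of 3 or more sites, where strength kept 1.41. No paired analysis was possible because the values of the Inputs themselves were not analysed here. The depth of the libraries, and so its part in any of these values, is unknown.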

Other observations

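Some clusters lay very far from the TSS nearest to them. Of the 3 NR2F2 clusters, 1 pair lay 1040.2 and 1037.6 kb upstream, with a −log10 p of 333 and 711 at the first and of 67.3 and 97.0 at the second site in replicates 1 and 2. Another lay 620.4 and 615 kb upstream, where the second site, with TGACAG centred on its summit, had 461 and 431. The pair near CDH8, a cadherin gene, lay 623 and 616 kb downstream of the TSS, with 238 and 438 and with 18.7 and 48.4. The pair near ZIC1, a zinc-finger gene of the dorsal neural tube, lay 521 and 529 kb downstream and held no TGACAG, although its first site had 183 and 391.

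Pairs at ZNF608 and DUSP6 each had a site at a promoter. The pair at ZNF608 had a site 0.625 kb downstream of the TSS with a listed −log10 p of 139 and a fold enrichment of 15.0 and 23.6. The other site, 6865 bp away, had 101, 12.4 and 33.7 in this order. At DUSP6, a phosphatase of the ERK kinases, the site 6.26 kb downstream of the TSS had a listed −log10 p of 56.1. The site at the TSS had 18.6. Far from its promoter, a second pair at NTRK2, 248 and 255 kb downstream of the TSS, had 22.2 and 97.4, both with TGACAG.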
